A study of Mus musculus with 14 samples.

Results

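The genes described here are 32 genes of the endoplasmic reticulum (ER) that fold, check and discard secreted and membrane proteins or sense how well this is done. They were chosen by symbol from a fixed list of ER chaperones and unfolded protein response genes. All 32 were found among the 55487 gene entries of the count table, and all 32 were among the 14754 genes with enough reads to be tested. They were measured by messenger RNA sequencing of monocytes isolated from the bone marrow of mouse legs (90 to 95% pure by flow cytometry). The cells were kept outside the body for 3 h. There were 4 groups: AhR-deficient cells in IL-4 at 20 ng/mL and AhR-deficient cells in medium (n = 3 each, numbers 4, 5 and 6), wild-type cells in IL-4 at 20 ng/mL and wild-type cells in medium (n = 4 each, numbers 1, 2, 3 and 7). AhR stands for the aryl hydrocarbon receptor, a ligand-activated transcription factor, and IL-4 is a cytokine of type 2 immunity. The sources used here give neither the strain, the age of the mice nor the allele behind the deficiency. Nor do they say whether a number is 1 animal or a pool, so p-values measure the spread between these libraries, which may in part be technical.

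Secreted and membrane proteins are folded in the ER by chaperones of the Hsp70 and Hsp90 families, by lectins that hold glycoproteins, and by isomerases that form disulfide bonds. When unfolded proteins build up, 3 sensors in the ER membrane respond. IRE1 splices the Xbp1 messenger, PERK phosphorylates the translation factor eIF2 and thereby favours translation of ATF4, and ATF6 moves to the Golgi apparatus, where it is cleaved into a transcription factor. The spliced XBP1 protein and cleaved ATF6 switch on chaperone and degradation genes. Plasma cells are the best known cells with a large ER, and myeloid cells need the same machinery to display receptors and secrete proteins. The counts are per gene, so spliced and unspliced Xbp1 messenger cannot be told apart in them, and protein was not measured.

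Many promoters of this response carry the ER stress element, which was searched for as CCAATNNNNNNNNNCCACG on both strands, where N is any base. Windows of 250 bases before to 50 after the RefSeq gene start (GRCm38.p6) were at hand for 26 of the 32 genes. The element was found in 8 of the 26 genes (30.8%), against 39 of all 32851 windows (0.119%). A second form, ATTGG and CCACG with 1 base between them, was found in 2 of the 26 genes (7.69%), against 0.0365% of all windows, and the core TGACGTGG, linked to ATF6 and XBP1, in 0 of the 26 genes, against 0.676% of all windows. A match describes the letters and is not evidence of binding. Stretches that hold an element upstream of the start are shown because they mark which of the chaperone, lectin, isomerase and degradation genes below carry it there. Dnajb11 holds the second form 7 to 17 bases past the start, so its stretch is not shown. Capitals mark the element, sequences run 5′ to 3′ on the gene's strand and are from RefSeq, GRCm38.p6. Hspa5 lies at chr2:34772015-34772053 (plus strand), Hsp90b1 with 2 elements at chr10:86705523-86705666 (minus), Dnajc3 at chr14:118937817-118937855 (plus), Creld2 at chr15:88819510-88819548 (plus), Calr at chr8:84847065-84847103 (minus), Canx at chr11:50325790-50325828 (minus), Pdia6 at chr12:17266481-17266519 (plus), Syvn1 at chr19:6046522-6046560 (plus) and Herpud1, with the second form, at chr8:94386367-94386397 (plus).
Hspa5: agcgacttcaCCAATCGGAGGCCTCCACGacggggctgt
Hsp90b1: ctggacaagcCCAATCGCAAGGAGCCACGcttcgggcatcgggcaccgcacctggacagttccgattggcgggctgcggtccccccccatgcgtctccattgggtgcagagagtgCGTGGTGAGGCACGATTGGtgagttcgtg
Dnajc3: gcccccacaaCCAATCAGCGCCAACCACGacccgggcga
Creld2: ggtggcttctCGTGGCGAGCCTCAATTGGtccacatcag
Calr: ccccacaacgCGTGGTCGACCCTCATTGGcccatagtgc
Canx: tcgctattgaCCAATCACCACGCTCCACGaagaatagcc
Pdia6: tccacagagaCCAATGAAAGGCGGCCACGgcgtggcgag
Herpud1: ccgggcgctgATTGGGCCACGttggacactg
Syvn1: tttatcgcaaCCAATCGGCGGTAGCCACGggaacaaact

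The libraries held 33432502 to 42885079 counts, and the members had between 115 counts (Pdia5) and 37346 counts (Hspa5) in a library. All 10 monocyte markers were detected in every library. Ahr itself was at 41.9 ± 4.43 CPM in AhR-deficient cells in IL-4, 20.9 ± 5.23 CPM in AhR-deficient cells in medium, 25.5 ± 1.40 CPM in wild-type cells in IL-4 and 13.02 ± 1.60 CPM in wild-type cells in medium (mean ± SD; CPM is the TMM-scaled count relative to library size). The Ahr messenger was thus above that of wild type in both conditions, and "AhR-deficient" is used as the label. All 6 AhR-deficient libraries had 987 CPM or more of Xist, the 8 wild-type ones 2.12 CPM or less, and the Y-linked Ddx3y was at 0 in the AhR-deficient ones, so genotype and sex cannot be told apart. Wild-type numbers 1 and 2 were the richest in granulocyte messengers, with summed neutrophil markers of 1281 and 1186 CPM in medium, against 529 to 897 CPM in the AhR-deficient and the other wild-type libraries in medium. The 2 libraries of wild-type number 7 differed from each other, with neutrophil markers at 990.1 CPM in IL-4 and 535 CPM in medium, and the monocyte receptor Ccr2 at 1871 CPM in IL-4 and 478 CPM in medium. The other wild-type libraries had 1424 CPM or more of Ccr2, and AhR-deficient libraries 564 CPM or less. Calls that were lost without number 7, or without numbers 1 and 2, are named with their genes below.

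Per kilobase of merged exons, the most abundant of the 32 genes in wild-type cells in medium was P4hb, a protein disulfide isomerase, at 229 ± 5.46 CPM per kb (mean ± SD, n = 4 for this and the next values). It was followed by Pdia3 (131 ± 3.29), Calr (127 ± 13.2), Hsp90b1 (119.5 ± 9.53) and Hspa5 (117 ± 27.2), and no neighbours among these 4 differed beyond their SD. The sensors were far lower, with Atf6 at 30.3 ± 5.97, Ern1 at 24.04 ± 2.21 and Eif2ak3 at 10.3 ± 0.938 CPM per kb. The transcription factor Xbp1 stood between them at 74.7 ± 6.93 CPM per kb. The least abundant gene was Pdia5, an isomerase, at 1.17 ± 0.0924 CPM per kb. Hspa5 had the largest SD of the 5 most abundant genes.

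**Figure D1:**
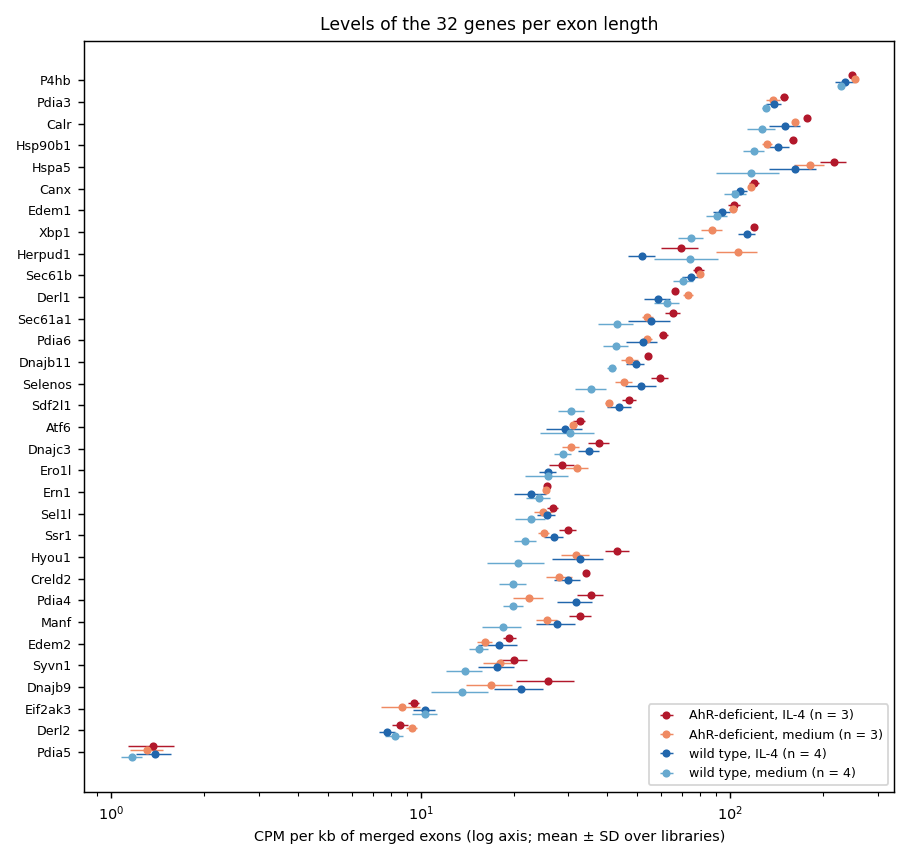
Mean level of each of the 32 genes per kilobase of merged exons in the 4 groups (log axis, CPM per kb, bars are SD over 3 or 4 libraries). Wild-type cells in medium ran from 1.17 for Pdia5 to 229 for P4hb, and Hspa5, Hyou1 and Pdia4 show wide shifts between the groups while P4hb, Pdia3 and Canx shift little.

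After 3 h of IL-4, the messengers of the soluble Hsp70 and Hsp90 machinery, of Xbp1 and of selected isomerases and translocon subunits were higher, by modest amounts, while those of the 3 stress sensors were not called. In AhR-deficient cells, 10 members rose (31.2%), 1 fell (3.1%) and 21 did not pass the test, at an adjusted p under 0.05. In wild-type cells, 17 rose (53.1%), 1 fell (3.1%) and 14 did not pass. Of all genes tested, 15.4% rose and 14.2% fell in AhR-deficient cells, and 19.4% rose and 16.5% fell in wild-type cells. The median log2 difference over the members was 0.17 in AhR-deficient and 0.25 in wild-type cells, where the median of all genes was about 0 (-0.0091 and 0.0089). Rises of called members ran from 1.15-fold to 1.59-fold in AhR-deficient and from 1.19-fold to 1.59-fold in wild-type cells. All 10 genes that rose in AhR-deficient cells also rose in wild-type cells, 7 passed in wild-type cells alone (Calr, Hspa5, Hyou1, Pdia6, Sdf2l1, Sec61a1 and Syvn1), and Herpud1 fell in both. Of the 14754 genes tested, 1985 rose in both, 880 in wild-type cells alone and 280 in AhR-deficient cells alone. The 10 shared rises were 31.2% of the members. Of all genes, at most 15.4% rose in both, since that share rose in AhR-deficient cells. Shared rises were thus a larger share of the members than of all genes, a difference that was not tested.

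Libraries with the same number deviated together over all genes, though over the 32 members alone the pair of number 7 did not (r = -0.06, against 0.26 to 0.87 in the other 6 pairs). With the number as a replicate block more members passed. There, 16 of the 32 rose and 3 fell in AhR-deficient cells, and 19 rose (59.4%) and 2 fell in wild-type cells, against 18.4% and 17.8% of all genes that rose and fell in AhR-deficient cells and 22.8% and 19.9% in wild-type cells. The members that the block added to the rises in AhR-deficient cells were Hspa5, Hyou1, Pdia6, Edem2, Syvn1 and Sec61a1. In every one of the 7 pairs, 19 members were higher and 3 members (Herpud1, Derl1 and Derl2) were lower with IL-4. The share of all genes that moved 1 way in every pair was not counted, so these counts have no background. Every library in IL-4 was above every library in medium for 16 members in AhR-deficient and 11 (34.4%) in wild-type cells, against 22.3% and 18.4% of all genes. Without wild-type number 7, 11 members rose and 0 fell in wild-type cells, and with the block and without number 7, 18 rose and 2 fell. With only the 2 groups of a comparison in the model, 15 members rose in AhR-deficient and 15 in wild-type cells, so the 10 against 17 above was not seen there. Without the block, the 10 rises in AhR-deficient cells were 5 when AhR-deficient number 6 in medium, number 4 in IL-4 or number 5 in IL-4 was left out. For the fits with libraries left out or with only the 2 groups, the share of all genes called was not counted. Those member counts therefore have no background.

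**Figure D2:**
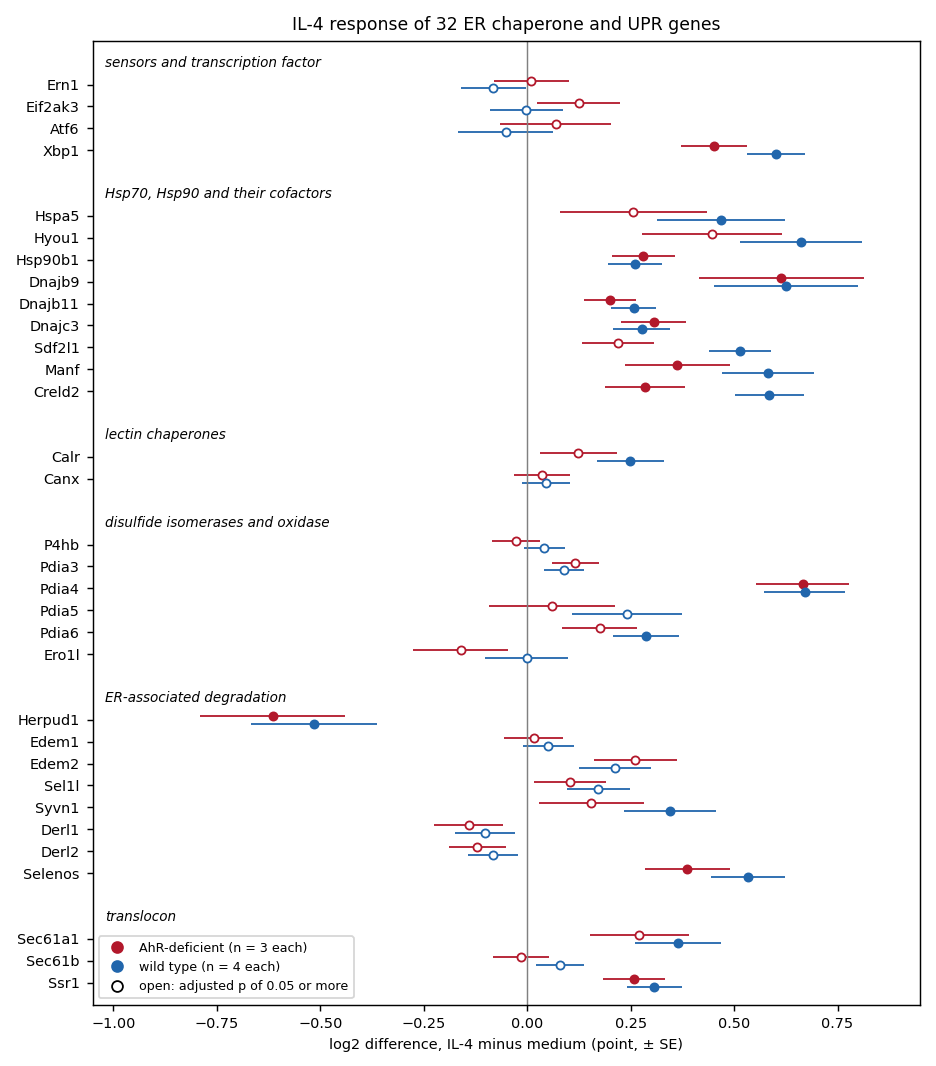
IL-4 response of each gene as log2 difference, IL-4 minus medium (points, with SE bars), in AhR-deficient (red) and wild-type cells (blue), by role; filled points passed an adjusted p under 0.05. All 9 genes of the Hsp70 and Hsp90 group lie right of 0 in both genotypes, the 3 sensors have open points and Herpud1 lies left of 0.

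Of the sensors and their transcription factor, Xbp1 alone rose. Ern1 (chr11:106394650-106487852, minus strand, GRCm38) encodes IRE1, the kinase and nuclease that splices the Xbp1 messenger. It had 205, 213 and 209 CPM in AhR-deficient cells in IL-4, against 207, 211 and 206 CPM in medium, and 169, 196, 212 and 165 CPM in wild-type cells in IL-4, against 178, 193, 222 and 194 CPM in medium. The groups overlapped, and the log2 difference was 0.01 ± 0.09 in AhR-deficient cells (adjusted p = 0.955) and -0.08 ± 0.08 in wild-type cells (adjusted p = 0.469; ± is the SE for log2 differences throughout). Eif2ak3 (chr6:70844515-70905245, plus strand) encodes PERK. Its values were 57.7, 59.3 and 54.5 CPM in AhR-deficient cells in IL-4, against 48.97, 61.04 and 47.4 CPM in medium, and 57.5, 58.5, 68.4 and 64.1 CPM in wild-type cells in IL-4, against 67.9, 60.4, 65.3 and 55.1 CPM in medium. The ranges overlapped in both genotypes (adjusted p = 0.411 in AhR-deficient, 0.991 in wild-type cells).

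Atf6 (chr1:170704674-170867771, minus strand), the sensor that is itself a transcription factor precursor, had 317, 295 and 292 CPM in AhR-deficient cells in IL-4, against 293, 279 and 289.7 CPM in medium. In wild-type cells it had 256, 252, 325 and 248 CPM in IL-4, against 236, 254, 360.2 and 270.0 CPM in medium, where number 3 was the highest library in both conditions. Neither difference passed the test (log2 0.07 ± 0.13, adjusted p = 0.761 in AhR-deficient, and -0.05 ± 0.12, adjusted p = 0.772 in wild-type cells). Xbp1 (ENSMUSG00000020484.18, chr11:5520659-5525893, plus strand) had 391, 390.0 and 386 CPM in AhR-deficient cells in IL-4, against 294, 301 and 259 CPM in medium. In wild-type cells it had 348, 349.9, 387 and 389 CPM in IL-4, against 241, 218, 273 and 239 CPM in medium. No library in IL-4 overlapped with one in medium of its genotype, and the rise was 1.37-fold in AhR-deficient cells (log2 0.45 ± 0.08, adjusted p = 0.000613) and 1.52-fold in wild-type cells (log2 0.60 ± 0.07, adjusted p = 1.06e-05).

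**Figure D3:**
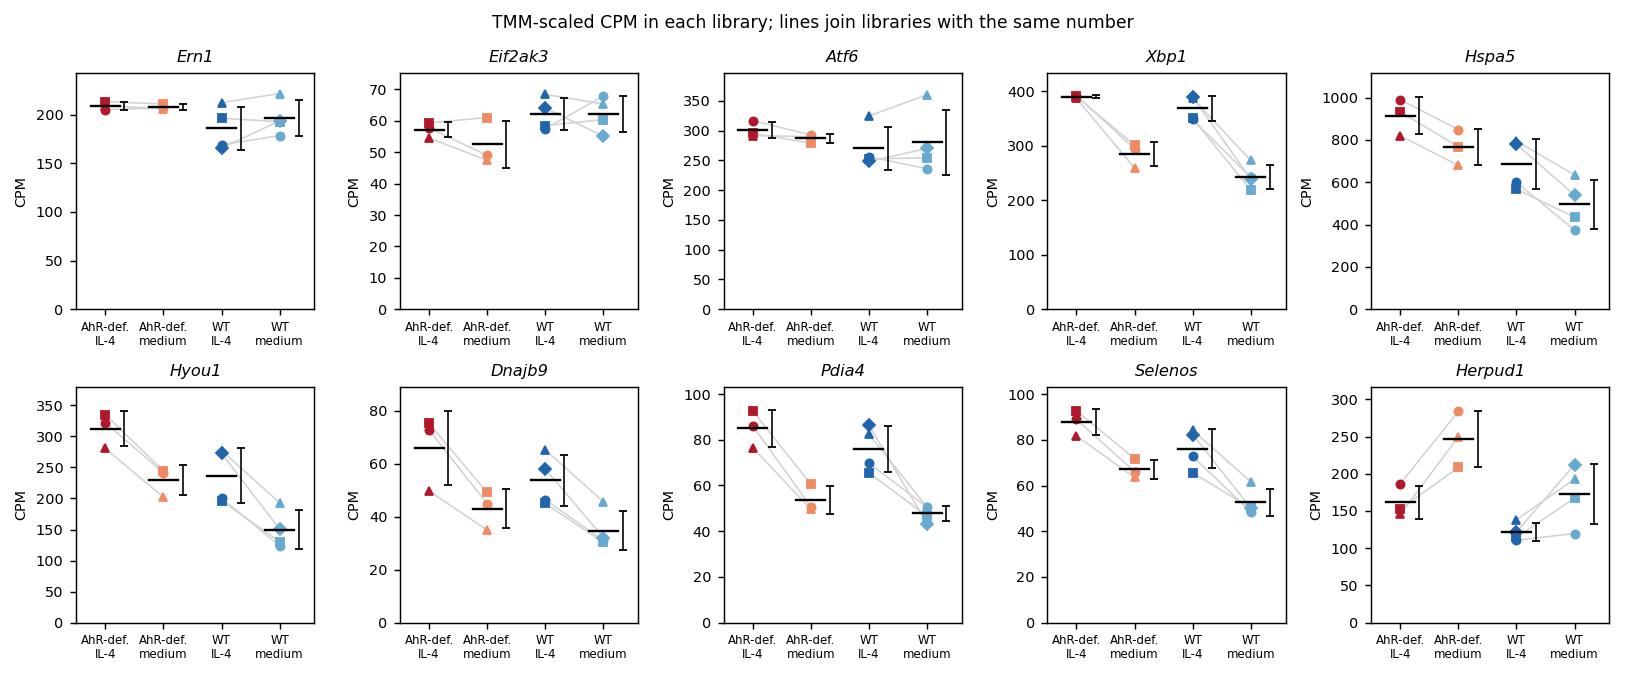
TMM-scaled CPM of 10 genes in every library, IL-4 left of medium and AhR-deficient left of wild type, with the group mean (black line), SD (bar) and grey lines joining libraries of the same number. Xbp1, Hyou1, Pdia4 and Selenos were higher with IL-4 in every pair, Herpud1 was lower in every pair, and Ern1, Eif2ak3 and Atf6 overlapped.

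Chaperones of the Hsp70 and Hsp90 families and their cofactors were the group in which the most members rose, with 6 of 9 in AhR-deficient cells (median log2 0.28) and 9 of 9 in wild-type cells (median log2 0.51). Hspa5 (ENSMUSG00000026864.13, chr2:34771970-34777547, plus strand) encodes BiP, the Hsp70 of the ER that also holds the sensors inactive. This position is from GENCODE and begins before the RefSeq start used above, so the printed stretch lies inside it. Hspa5 had 989.9, 933 and 819 CPM in AhR-deficient cells in IL-4, against 849, 767 and 679.7 CPM in medium. In wild-type cells it had 600.3, 567, 795 and 779.8 CPM in IL-4, against 374, 435, 634 and 539 CPM in medium. Every pair was higher with IL-4 while the unpaired ranges overlapped, since the libraries of one group spread widely. The log2 difference was 0.26 ± 0.18 in AhR-deficient cells, which did not pass (adjusted p = 0.323, and 0.00836 with the replicate block), and 0.47 ± 0.15 in wild-type cells (adjusted p = 0.0287). In wild-type cells the call for Hspa5 was lost without number 1 or 2 in medium, without number 3 or 7 in IL-4, without both libraries of number 7, and with only the 2 groups in the model, with an adjusted p of up to 0.0859 where 1 library was left out.

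Hyou1, a large Hsp70 relative that exchanges nucleotide on BiP, had 322, 335 and 281 CPM in AhR-deficient cells in IL-4, against 242, 245 and 202 CPM in medium. Wild-type cells had 201, 196, 277 and 273 CPM in IL-4, against 124, 131, 193 and 151 CPM in medium. IL-4 and medium did not overlap in either genotype, and the log2 difference was 0.45 ± 0.17 in AhR-deficient (adjusted p = 0.0628, and 0.00016 with the block) and 0.66 ± 0.15 in wild-type cells (adjusted p = 0.00274). Hsp90b1, the Hsp90 of the ER known as GRP94 that folds Toll-like receptors and integrins, had 663, 637 and 632 CPM in AhR-deficient cells in IL-4, against 510.2, 551 and 531 CPM in medium, and 534, 546, 594 and 636 CPM in wild-type cells in IL-4, against 432, 474, 520.2 and 502 CPM in medium. Its rise was of like size in both genotypes (log2 0.28 ± 0.08, adjusted p = 0.0117 in AhR-deficient, and 0.26 ± 0.07, adjusted p = 0.0063 in wild-type cells), with no overlap in either. The exons of Hsp90b1 overlap those of Gm15344, so its count is uncertain. Eif2ak3, Pdia3, Pdia6, Syvn1, Derl2 and Sec61a1 overlap an annotated gene on the other strand, and since the strand setting of the counting is not known, reads of the partner cannot be told apart.

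Among the J-domain partners that recruit BiP, Dnajb9 rose most. It encodes ERdj4, which was 72.6, 75.1 and 49.7 CPM in AhR-deficient cells in IL-4, against 44.9, 49.1 and 34.9 CPM in medium. In wild-type cells Dnajb9 had 46.4, 44.9, 65.2 and 57.98 CPM in IL-4, against 30.98, 30.2, 45.6 and 32.1 CPM in medium. AhR-deficient number 6 was the lowest library of its genotype in both conditions and wild-type number 3 the highest of its own, and the rise passed in both (log2 0.61 ± 0.20, adjusted p = 0.0315 in AhR-deficient, and 0.62 ± 0.17, adjusted p = 0.0117 in wild-type cells). The wild-type call of Dnajb9 was lost without number 7 (log2 0.54, adjusted p = 0.0773) and without numbers 1 and 2 (log2 0.66, adjusted p = 0.0647). Dnajb11, or ERdj3, had 177, 178 and 173 CPM in AhR-deficient cells in IL-4, against 162, 143 and 154 CPM in medium, and 154, 149, 171 and 168 CPM in wild-type cells in IL-4, against 128, 134, 139.8 and 134 CPM in medium. The rises were small but did not overlap (log2 0.20 ± 0.06, adjusted p = 0.0251 in AhR-deficient, and 0.26 ± 0.05, adjusted p = 0.00181 in wild-type cells). Dnajc3, a further partner of BiP first described as an inhibitor of eIF2 kinases, rose as well (log2 0.31 ± 0.08 in AhR-deficient and 0.28 ± 0.07 in wild-type cells).

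The other cofactors were Sdf2l1, which works with ERdj3, and the ER proteins Manf and Creld2. Sdf2l1 had 51.8, 55.2 and 49.7 CPM in AhR-deficient cells in IL-4, against 45.5, 45.7 and 43.4 CPM in medium, and 45.8, 44.5, 49.99 and 54.1 CPM in wild-type cells in IL-4, against 35.5, 34.4, 36.8 and 29.4 CPM in medium. It did not pass in AhR-deficient cells (log2 0.22 ± 0.09, adjusted p = 0.0721) and passed in wild-type cells (log2 0.51 ± 0.07, adjusted p = 9.35e-05). Creld2 had 47.3, 47.01 and 46.00 CPM in AhR-deficient cells in IL-4, against 42.3, 37.9 and 34.99 CPM in medium, and 38.1, 36.8, 44.3 and 44.1 CPM in wild-type cells in IL-4, against 26.98, 23.9, 30.7 and 27.3 CPM in medium. Creld2 rose in both (log2 0.28 ± 0.10, adjusted p = 0.0383 in AhR-deficient, and 0.59 ± 0.08, adjusted p = 8.32e-05 in wild-type cells). Manf, which binds BiP and can be secreted, rose by 0.36 ± 0.13 on the log2 scale in AhR-deficient (adjusted p = 0.0447) and by 0.58 ± 0.11 in wild-type cells (adjusted p = 0.000884). The exons of Manf overlap those of Rbm15b and Dcaf1, so its count is uncertain. In AhR-deficient cells the calls of Creld2 and Manf were lost with upper quartile scaling and in 5 of the 6 fits that left out 1 library (adjusted p of up to 0.150 for Creld2 and 0.154 for Manf). Those of Dnajb9, Dnajb11 and Ssr1 were lost in 4 of the 6.

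The lectin chaperones moved little. Calr, calreticulin, which holds glycoproteins with trimmed sugar chains, had 520.1, 507 and 504 CPM in AhR-deficient cells in IL-4, against 473, 462 and 472 CPM in medium, and 386, 402, 451 and 496 CPM in wild-type cells in IL-4, against 322, 345, 404 and 389 CPM in medium. It passed in wild-type cells (log2 0.25 ± 0.08, adjusted p = 0.0265), where the ranges overlapped, and not in AhR-deficient cells (log2 0.12 ± 0.09, adjusted p = 0.372). The wild-type call of Calr was lost without number 7 (log2 0.21, adjusted p = 0.0775), with only the 2 groups in the model, and in 4 of the 8 fits that left out 1 library (adjusted p of up to 0.0926). Canx, calnexin, the membrane-bound relative, passed in neither (log2 0.03 ± 0.07 in AhR-deficient and 0.05 ± 0.06 in wild-type cells).

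Of the 6 genes of disulfide formation, Pdia4 rose in both genotypes and Pdia6 in wild-type cells. Pdia4 (ENSMUSG00000025823.9, chr6:47796141-47813430, minus strand) encodes the isomerase ERp72. It had 86.1, 92.6 and 76.5 CPM in AhR-deficient cells in IL-4, against 50.7, 60.5 and 49.6 CPM in medium, and 69.8, 65.5, 82.3 and 86.4 CPM in wild-type cells in IL-4, against 50.5, 46.6, 50.5 and 43.3 CPM in medium. No ranges overlapped, and the rise was 1.59-fold in each genotype, the largest of any member in both (log2 0.67 ± 0.11, adjusted p = 0.000427 in AhR-deficient, and 0.67 ± 0.10, adjusted p = 9.27e-05 in wild-type cells). Pdia6 gave 0.17 ± 0.09 in AhR-deficient (adjusted p = 0.177, and 0.0204 with the block) and 0.29 ± 0.08 in wild-type cells (adjusted p = 0.0108, and 0.0626 without number 7). The 2 most abundant isomerases, P4hb and Pdia3, which is the partner of the lectin chaperones, did not pass in either genotype, with log2 differences of -0.03 ± 0.06 and 0.12 ± 0.06 in AhR-deficient and 0.04 ± 0.05 and 0.09 ± 0.05 in wild-type cells. Nor did Pdia5 or Ero1l, the oxidase that recharges the isomerases.

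The 8 genes of ER-associated degradation, which draws misfolded proteins out of the ER for the proteasome, were divided. Herpud1 (ENSMUSG00000031770.16, chr8:94386438-94395377, plus strand), a membrane scaffold of the degradation complex, was the 1 member that fell. It had 187, 152 and 145 CPM in AhR-deficient cells in IL-4, against 284, 208 and 249.5 CPM in medium, and 111, 114, 138 and 122 CPM in wild-type cells in IL-4, against 119.7, 167, 193 and 212 CPM in medium. The AhR-deficient ranges did not overlap, and in wild-type cells number 1 was close to its IL-4 library in medium while number 7 differed most. The log2 difference was -0.61 ± 0.18 in AhR-deficient (adjusted p = 0.0164) and -0.51 ± 0.15 in wild-type cells (adjusted p = 0.0169). Without number 7 the wild-type value was -0.41 (adjusted p = 0.0975), and with the block and without number 7 it was -0.39 (adjusted p = 0.0029). In AhR-deficient cells the call was lost without number 4 in medium or number 5 or 6 in IL-4 (adjusted p of up to 0.0750).

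Selenos, a selenoprotein that links the complex to the ATPase that pulls proteins out, had 88.97, 92.8 and 81.8 CPM in AhR-deficient cells in IL-4, against 66.1, 71.8 and 63.6 CPM in medium, and 72.8, 65.6, 84.2 and 82.4 CPM in wild-type cells in IL-4, against 48.5, 50.2, 61.7 and 50.2 CPM in medium. It rose without overlap in both (log2 0.39 ± 0.10, adjusted p = 0.011 in AhR-deficient, and 0.53 ± 0.09, adjusted p = 0.000331 in wild-type cells). Syvn1, the ubiquitin ligase HRD1, passed in wild-type cells (log2 0.34 ± 0.11, adjusted p = 0.0263, but 0.105 without number 7 and 0.0643 without numbers 1 and 2) and in AhR-deficient cells with the block alone (log2 0.16, adjusted p = 0.0153, against 0.415 without the block). Its partner Sel1l and the mannosidase-like Edem2 passed in wild-type cells with the block alone (adjusted p = 0.00558 and 0.0456), Edem2 also in AhR-deficient cells (adjusted p = 0.033), and Edem1 passed in neither fit. The channel-like derlins leaned the other way, with Derl1 at -0.14 ± 0.08 in AhR-deficient and -0.10 ± 0.07 in wild-type cells and Derl2 at -0.12 ± 0.07 and -0.08 ± 0.06. With the block, Derl1 fell in both genotypes (adjusted p = 0.019 in AhR-deficient and 0.0378 in wild-type cells) and Derl2 in AhR-deficient cells (adjusted p = 0.0403).

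In the translocon, through which new proteins enter the ER, Ssr1 rose in both genotypes. This subunit of the translocon-associated complex had 324, 323 and 289.7 CPM in AhR-deficient cells in IL-4, against 258, 272 and 253 CPM in medium, and 270.2, 260.3, 292 and 301 CPM in wild-type cells in IL-4, against 220.1, 218, 255 and 215 CPM in medium. The groups did not overlap (log2 0.26 ± 0.08, adjusted p = 0.0189 in AhR-deficient, and 0.31 ± 0.07, adjusted p = 0.0021 in wild-type cells). Sec61a1, the pore itself, passed in wild-type cells (log2 0.36 ± 0.10, adjusted p = 0.0134, but 0.0970 without number 7) and not in AhR-deficient cells (log2 0.27 ± 0.12, adjusted p = 0.109, and 0.00306 with the block). The small pore subunit Sec61b passed in neither.

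Members with and without an ER stress element of either form were counted apart, as a description. Of the 10 members with one, 4 rose and 1 fell in AhR-deficient cells (median log2 0.19), and 8 rose and 1 fell in wild-type cells (median log2 0.27), where 15.4% of all genes rose and 14.2% fell in AhR-deficient cells and 19.4% rose and 16.5% fell in wild-type cells. Of the 16 members with a window and neither element, 5 rose in AhR-deficient cells (31.2%, median 0.12) and 6 rose in wild-type cells (37.5%, median 0.19), among them Xbp1, Dnajb9 and Pdia4. Herpud1, which fell, holds the second form at the stretch printed above.

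No single member differed between the genotypes in its IL-4 response by the test of that difference. No member had an adjusted p under 0.05 for the difference between the responses (genotype by IL-4 interaction in edgeR), and this was so for 0% of all genes, with and without the block. At an unadjusted p under 0.05 there were 2 members without the block, namely Sdf2l1 (-0.29 ± 0.11) and Creld2 (-0.30 ± 0.13). Their share of 6.2% was near the 3.78% of all genes. With the block there were 6 (18.8%, against 8.48% of all genes), namely Hspa5, Hyou1, Sdf2l1, Manf, Creld2 and Syvn1, with a smallest adjusted p of 0.398. The difference was below 0 for 25 of the 32 members, which means a lower log2 difference in AhR-deficient cells and not always a smaller rise, since Herpud1, Derl1, Derl2 and Ero1l were below 0 in both genotypes and further below in AhR-deficient cells. Its median over the members was -0.07, and -0.03 without number 7, where its median over all genes was -0.014 with every library kept. This difference uses the medium libraries of the comparison that follows.

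In medium alone, the members were slightly higher in AhR-deficient than in wild-type cells. Of the 32, 8 passed and all 8 were higher in AhR-deficient cells, against 4.16% of all genes higher and 3.95% lower. The log2 difference was above 0 for 31 of the 32 members, with a median of 0.20, where the median of all genes was 0.0098. All members were read from the same libraries, so these signs are not separate observations. Every AhR-deficient library was above every wild-type library for 15 members (46.9%), against 10.5% of all genes. The exception in direction was Eif2ak3 (log2 -0.24 ± 0.09, adjusted p = 0.118). The 8 genes were Hspa5, Hyou1, Sdf2l1, Manf and Creld2 of the Hsp70 and Hsp90 group, Calr, Pdia6 and Selenos, and each of them also rose with IL-4 in wild-type cells. Both comparisons use the same wild-type libraries in medium.

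The largest of these differences was that of Hspa5, which was 1.54-fold higher in AhR-deficient cells in medium (log2 0.63 ± 0.16, adjusted p = 0.036) in the libraries listed above, followed by Hyou1 (log2 0.62 ± 0.16, adjusted p = 0.0321). The smallest adjusted p was that of Creld2 (log2 0.50 ± 0.09, adjusted p = 0.0106), and Sdf2l1 gave 0.40 ± 0.08 (adjusted p = 0.0134). Calr gave 0.36 ± 0.09 (adjusted p = 0.0261), Pdia6 0.34 ± 0.08 (adjusted p = 0.0309), Selenos 0.35 ± 0.10 (adjusted p = 0.0418) and Manf 0.47 ± 0.12 (adjusted p = 0.0313). Herpud1 was 0.51 ± 0.16 higher without passing (adjusted p = 0.0659). The sensors Ern1 and Atf6 gave 0.08 ± 0.08 and 0.04 ± 0.12.

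The count of 8 depends on single libraries. It was 0 without AhR-deficient number 4 in medium, 2 without wild-type number 1 or 2 in medium, 4 without AhR-deficient number 5 or 6 in medium, and 16 without wild-type number 3 in medium. It was also 0 with wild-type numbers 1 and 2 both left out, 0 with only the 2 groups in the model, 2 with a granulocyte marker score as a covariate, and 14 with DESeq2. The share of all genes called in these fits was not counted, so whether such changes are particular to the members cannot be read from them. The median log2 difference of the members, 0.20 above, was 0.15 with numbers 1 and 2 left out, 0.18 with only the 2 groups and 0.19 with the granulocyte score. The summed CPM of the 32 members in medium was 7652 to 8024 in AhR-deficient cells, against 6028 and 6352 in wild-type numbers 1 and 2 and 7423 and 6699 in wild-type numbers 3 and 7. The 12 neutrophil markers summed to 529 to 897 CPM and the 6 eosinophil markers to 12.47 to 63.5 CPM in AhR-deficient cells in medium, against 535 to 1281 CPM and 26.8 to 123 CPM in wild-type cells in medium. Wild-type numbers 1 and 2 had the lowest member sums and the highest granulocyte sums. The neutrophil list did not move as a whole, since the granule genes Elane, Mpo and Prtn3 were higher in every AhR-deficient than in every wild-type library in medium (means of 34.7, 46.9 and 118 CPM in AhR-deficient, against 23.2, 29.3 and 79.1 CPM in wild-type cells). Of the 12, Prtn3 alone passed (adjusted p = 0.0495), and the 9 besides these 3 were lower in AhR-deficient cells without passing. In bulk samples, a lower share of a cell type and less messenger per cell cannot be told apart.

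Of the defining messengers of plasma cells, which are rich in these chaperones, Mzb1 was at most 0.25 CPM, Tnfrsf17 at most 0.193 CPM and Derl3 at most 0.745 CPM in any library, and the 6 B-cell markers summed to at most 3.80 CPM. The immunoglobulin genes Jchain and Igkc averaged 48.1 and 212 CPM in AhR-deficient medium libraries, against 19.98 and 95.1 CPM in wild-type medium libraries. The wild-type libraries were uneven, with Igkc at 88.8, 55.3, 17.7 and 219 CPM in numbers 1, 2, 3 and 7, the last within the range of AhR-deficient libraries in medium (186 to 244 CPM). For 3 of the 10 plasma cell markers, every AhR-deficient library in medium was above every wild-type one, against 10.5% of all genes. These were Jchain (37.0 to 64.9 CPM, against 7.19 to 29.4 CPM), Sdc1 (3.67 to 4.46 CPM, against 1.63 to 3.52 CPM) and Pou2af1 (0.752 to 0.902 CPM, against 0.218 to 0.686 CPM). The sum of all 10 plasma cell markers was 1073 to 1090.1 CPM in AhR-deficient cells in IL-4 and 489.6 to 539.7 CPM in AhR-deficient cells in medium, against 928 to 1148 CPM in wild-type cells in IL-4 and 265 to 451 CPM in wild-type cells in medium. In IL-4 it was dominated by Irf4, which stood at 515 CPM or more in IL-4 and at 20.1 CPM or less in medium. None of the 8 markers tested passed between the genotypes in medium, and their part in the differences above was not tested.

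**Figure D4:**
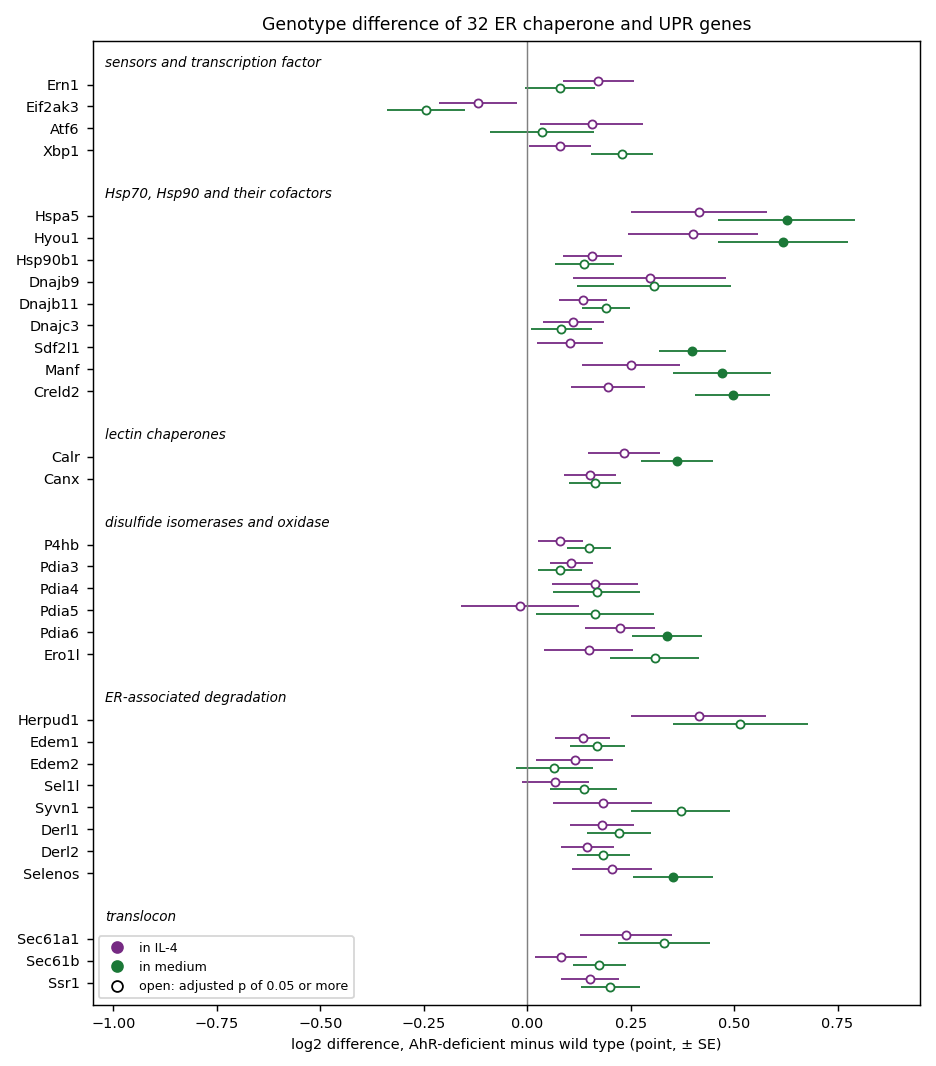
Genotype difference of each gene as log2 difference, AhR-deficient minus wild type (points, with SE bars), in IL-4 (purple) and in medium (green); filled points passed an adjusted p under 0.05. In medium 31 of 32 points lie right of 0 and 8 are filled, and in IL-4 30 lie right of 0 and none is filled.

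With IL-4 present, no member passed between the genotypes in edgeR, with limma-voom or with DESeq2, against 0.956% of all genes higher and 0.664% lower in AhR-deficient cells in edgeR. At an unadjusted p under 0.05 there were 11 members (34.4%, against 18.4% of all genes). Of the 32 differences, 30 were above 0, with a median of 0.15, where the median of all genes was -0.0078. The median of the members was 0.08 with wild-type numbers 1 and 2 left out and 0.10 with the granulocyte marker score as a covariate. Hspa5 gave 0.42 ± 0.16 (adjusted p = 0.201), Hyou1 0.40 ± 0.16 (adjusted p = 0.194) and Herpud1 0.41 ± 0.16 (adjusted p = 0.199).

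The rest of the pathway was read from 101 further genes, of which 99 were tested. In AhR-deficient cells 12 rose (12.1%, against 15.4% of all genes) and 7 fell (7.07%, against 14.2%) with IL-4. In wild-type cells 28 rose (28.3%, against 19.4% of all genes) and 9 fell (9.09%, against 16.5%). The medians were 0.04 in AhR-deficient and 0.07 in wild-type cells on the log2 scale, and these shares of all genes are the background for the smaller lists that follow. Of the 7 PERK arm genes among them, 0 rose and 1 fell in AhR-deficient and 2 rose and 2 fell in wild-type cells. Atf4, the transcription factor of this arm, had 521, 495 and 496 CPM in AhR-deficient cells in IL-4, against 551, 498 and 525 CPM in medium, and 431, 410.5, 431 and 423 CPM in wild-type cells in IL-4, against 405, 431, 418 and 454 CPM in medium. Ddit3, its target known as CHOP, had 17.6, 20.04 and 18.6 CPM in AhR-deficient cells in IL-4, against 18.3, 20.2 and 20.5 CPM in medium, and 11.3, 13.02, 12.48 and 12.9 CPM in wild-type cells in IL-4, against 10.8, 12.3, 12.495 and 12.9 CPM in medium. Neither passed with IL-4 (log2 -0.06 and -0.07 in AhR-deficient, -0.01 and 0.03 in wild-type cells). Ppp1r15a, which recruits the eIF2 phosphatase, fell in both (log2 -0.85 ± 0.20, adjusted p = 0.00437 in AhR-deficient, and -0.88 ± 0.17, adjusted p = 0.00102 in wild-type cells). Trib3 and Chac1, further ATF4 targets, rose in wild-type cells (log2 0.35 ± 0.11 and 0.45 ± 0.14, adjusted p = 0.0271 and 0.0188).

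Between the genotypes, 4 of the 7 PERK arm genes were higher in AhR-deficient cells in medium, against 4.16% of all genes. In IL-4 it was 3 of 7, against 0.956% of all genes. With these included, 12 of the 99 further genes tested (12.1%) were higher in medium and 3 (3.03%) in IL-4. Of the 12 other transducers and 21 other foldases, 0 passed in medium. The fits with libraries left out or with the granulocyte score were not read for these genes. Ddit3 was higher in every AhR-deficient library than in every wild-type library, by 0.69 ± 0.08 in medium (adjusted p = 0.000415) and 0.60 ± 0.08 in IL-4 (adjusted p = 0.00204) on the log2 scale. Atf4 was higher by 0.30 ± 0.05 in medium (adjusted p = 0.00761) and 0.25 ± 0.05 in IL-4 (adjusted p = 0.0319). Trib3 was higher by 1.12 ± 0.12 in medium (adjusted p = 0.000336) and 0.72 ± 0.12 in IL-4 (adjusted p = 0.0138), and Chac1 by 1.10 ± 0.14 in medium (adjusted p = 0.00177). Atf4 and its targets also respond to amino acid shortage and other stresses outside the ER.

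**Figure D5:**
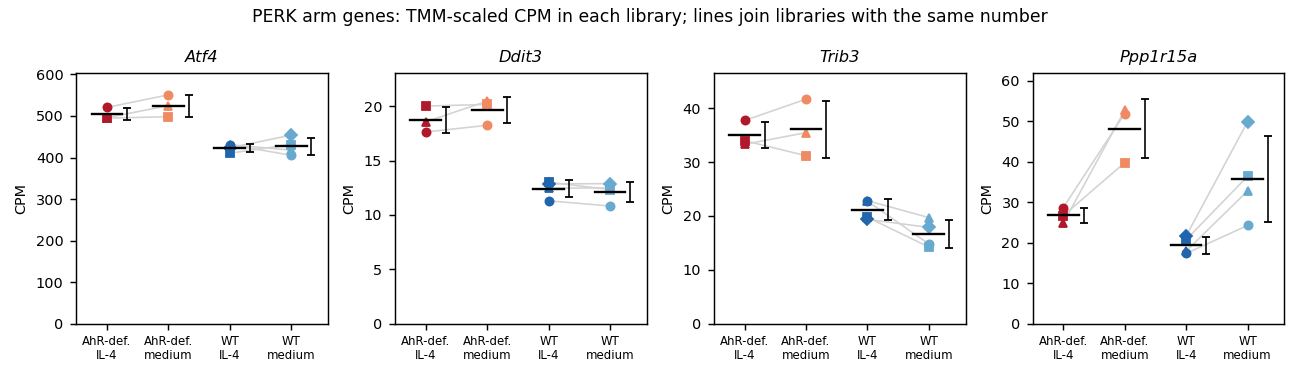
TMM-scaled CPM of 4 PERK arm genes in every library, IL-4 left of medium and AhR-deficient left of wild type, with group mean (black line), SD (bar) and lines joining libraries of the same number. Atf4, Ddit3 and Trib3 are higher in every AhR-deficient than in every wild-type library, and Ppp1r15a is lower with IL-4 in every pair.

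Of the 12 other transducers and cleavage factors, 4 rose in AhR-deficient and 5 in wild-type cells with IL-4. Creb3l2, a membrane-bound transcription factor of the ATF6 type, had 52.2, 55.7 and 46.6 CPM in AhR-deficient cells in IL-4, against 23.8, 28.7 and 22.3 CPM in medium, and 42.6, 37.96, 57.8 and 59.1 CPM in wild-type cells in IL-4, against 17.4, 16.8, 26.3 and 19.7 CPM in medium. Its rise (log2 1.05 ± 0.19, adjusted p = 0.000677 in AhR-deficient, and 1.297 ± 0.16, adjusted p = 2.55e-05 in wild-type cells) was larger than that of any of the 32 members, and no library overlapped. Wfs1, wolframin, an ER membrane protein, rose by 1.31 ± 0.18 in AhR-deficient (adjusted p = 8.88e-05) and 0.997 ± 0.16 in wild-type cells (adjusted p = 0.000207). Creb3 rose too, by 0.32 ± 0.05 and 0.16 ± 0.05 on the log2 scale in AhR-deficient and wild-type cells (adjusted p = 0.000472 and 0.0168), and so did Rtcb, the ligase that joins the spliced Xbp1 messenger (log2 0.14 ± 0.05 and 0.12 ± 0.04, adjusted p = 0.0422 and 0.038).

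Among 23 genes of translocation and oligosaccharyl transfer, 2 rose in AhR-deficient cells (8.7%, below the 15.4% of all genes) and 8 in wild-type cells (34.8%, against 19.4% of all genes). Stt3b, a catalytic subunit of the enzyme that attaches sugar chains, had 314, 313 and 318 CPM in AhR-deficient cells in IL-4, against 184, 194 and 184 CPM in medium, and 319, 304, 321 and 339.9 CPM in wild-type cells in IL-4, against 175, 183, 188 and 177 CPM in medium. The libraries of a group lay close together, and the rise was 0.75 ± 0.05 in AhR-deficient (adjusted p = 6.88e-08) and 0.83 ± 0.04 in wild-type cells (adjusted p = 3.46e-09). Of 10 genes of glycan trimming and glycoprotein control, 2 rose in AhR-deficient and 3 in wild-type cells, led by the lectin Erlec1 (log2 0.65 ± 0.08, adjusted p = 3.62e-05, and 0.54 ± 0.07, adjusted p = 4.26e-05) and the cargo receptor Lman1 (log2 0.27 ± 0.08, adjusted p = 0.025, and 0.35 ± 0.07, adjusted p = 0.00153).

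The 21 other foldases tested went both ways, with 2 risen and 4 fallen in AhR-deficient and 4 risen and 6 fallen in wild-type cells. The isomerase-like Txndc5 rose (log2 0.38 ± 0.10, adjusted p = 0.00848 in AhR-deficient, and 0.42 ± 0.08, adjusted p = 0.00123 in wild-type cells). Txndc12 (log2 -0.29 ± 0.06 and -0.31 ± 0.05), Creld1 (log2 -0.45 ± 0.12 and -0.56 ± 0.10) and the reductase Dnajc10 (log2 -0.48 ± 0.09 and -0.29 ± 0.07) fell in AhR-deficient and wild-type cells. Among 15 further degradation genes, 1 rose and 2 fell in AhR-deficient and 2 rose and 1 fell in wild-type cells, with Ngly1, which strips sugar chains from extracted proteins, lower in both (log2 -0.41 ± 0.06, adjusted p = 0.000107, and -0.31 ± 0.05, adjusted p = 0.000288). Of 11 tested genes of KDEL retrieval and ER export, 1 rose in AhR-deficient cells (Sec24a, log2 0.33 ± 0.10, adjusted p = 0.0203) and 4 in wild-type cells, among them the receptor Kdelr2 (log2 0.32 ± 0.08, adjusted p = 0.00511) and the coat subunit Sec24d (log2 0.79 ± 0.20, adjusted p = 0.00743).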

How the data were processed

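Per the labels' protocols, a stranded mRNA kit was used on 500 ng of RNA, with paired 100-nt reads. The authors deposited unnormalised counts for each gene and library. FastQC, STAR and mm10 are named in the submitters' processing notes; the sources used here name no counter, annotation or strand setting. Symbols, positions and exon lengths came from GENCODE M21 (GRCm38), promoter windows from RefSeq. The tests used edgeR 4.0.16 in R 4.3.3. filterByExpr kept 14754 genes (at least 10 counts in enough libraries and 15 in all), TMM scaled the libraries, and all 14 entered 1 quasi-likelihood model of the 4 groups. For each of 5 contrasts, Benjamini-Hochberg adjustment covered every gene tested, and a gene passed at an adjusted p under 0.05. Alternatives were other scalings, filters, DESeq2 1.42.0, limma-voom (limma 3.58.1), only the groups compared, libraries left out, and the number as a replicate block. A granulocyte score (mean log2 CPM of neutrophil and eosinophil markers) and leaving out number 7 were added after seeing the data. After group means were removed, same-numbered libraries had correlations of 0.170 to 0.706 over 10575 genes, each of the 7 pairs best with its own number, so the numbers were taken to pair the libraries. No number occurs in both genotypes, so genotype contrasts have no block. The steps were tested on simulated counts.

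Values of every library were given for the sensors, Xbp1, Hspa5 and the 4 largest and 4 smallest called log2 changes of each response, and of the other lists up to 4 genes each by adjusted p in an IL-4 response, with Atf4 and Ddit3. Sdf2l1, Creld2, Creb3l2 and Stt3b were given by library after their values were seen, and Ccr2 was named after its values were seen. The members and lists were chosen with earlier results of these data known. A planned description of protein sequences was not made. Figures were drawn with matplotlib 3.10.9.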

Additional observations from a re-analysis of the deposited data

Results flagged for a closer look

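Of 64 sets of 4 wild-type libraries checked (1 for each of the 32 genes in each condition), 4 held a library far from the other 3. Chance gives about 1 in 20, so 4 of 64 is near the number that chance gives. Atf6 was at 324.6 CPM in wild-type number 3 in IL-4, against 248 to 256 CPM in the others. In medium, number 3 was again the high one, with Dnajb9 at 45.6 CPM, against 30.2 to 32.1 CPM, Selenos at 61.7 CPM, against 48.5 to 50.2 CPM, and Ssr1 at 254.9 CPM, against 215 to 220.1 CPM. All 4 values belong to number 3, whose summed CPM of the 32 genes was the highest of the wild-type libraries in each condition (8219 in IL-4 and 7423 in medium). The 32 genes were read from the same libraries, so these 4 values are not separate observations. Leaving out number 3 in medium raised the members called up in wild-type cells to 18, and those higher in AhR-deficient cells in medium to 16.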

How the results depend on the processing

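No called member changed its direction in any setting, and 11 of the 17 rises in wild-type cells passed in all 20 settings run on them (Creld2, Dnajb11, Dnajc3, Hsp90b1, Hyou1, Manf, Pdia4, Sdf2l1, Selenos, Ssr1 and Xbp1), as did 5 of 10 in AhR-deficient cells in all 18 (Dnajc3, Hsp90b1, Pdia4, Selenos and Xbp1). None of the 8 genotype differences in medium passed in all 17. With the replicate block, which the paired libraries allow, 16 rose and 3 fell in AhR-deficient cells and 2 fell in wild-type cells; with the block and number 7 left out these were 18, 3 and 2. With number 7 left out and no block, 11 rose and 0 fell in wild-type cells. The 8 members higher in AhR-deficient cells in medium were 14 with DESeq2, 0 with only the groups compared, 0 with numbers 1 and 2 left out and 2 with the granulocyte score. With 1 library left out at a time, counts ran from 5 to 9 up and 0 to 1 down in AhR-deficient cells with IL-4, from 14 to 18 up and 0 to 1 down in wild-type cells with IL-4, and from 0 to 16 up and 0 to 1 down between genotypes in medium. For the interaction, and between genotypes in IL-4, they stayed at 0. The causes were not tested. The share of all genes called was counted only for the edgeR fit described above, with and without the block. The member counts of the other settings have no such background. Other scalings shifted the median of all genes by less than 0.02. With 3 or 4 libraries a group and SE of the log2 difference of 0.05 to 0.20, smaller changes could not be shown.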

Other observations

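Markers of other cells gave the following values. The 10 monocyte markers summed to 6518 ± 304 CPM in AhR-deficient cells in IL-4 and 8760.0 ± 438 CPM in AhR-deficient medium libraries, against 7138 ± 222 CPM in wild-type cells in IL-4 and 8568 ± 279 CPM in wild-type cells in medium (mean ± SD, n = 3 and 4). With IL-4, 5 of the 10 fell in AhR-deficient and 6 fell and 1 rose in wild-type cells. Mast cell and basophil markers summed to 45.2 ± 21.8 CPM in AhR-deficient and 72.4 ± 38.4 CPM in wild-type cells in IL-4, plasmacytoid dendritic cell markers to 48.1 ± 4.83 and 51.6 ± 6.24 CPM, and erythroid markers to 41.1 ± 13.9 and 35.5 ± 13.6 CPM. The T and NK cell markers summed to at most 3.996 CPM in any library.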
